A study of Mus musculus with 2 samples.

Results

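Kidney tissue came from mixed-sex C57BL/6J littermates, mice of an inbred strain, at the age of 8 weeks. The samples form 1 group of adult kidney, labelled as pooled male and female, with 2 biological replicates under 1 donor label and a health state given as unknown. Polyadenylated RNA was sequenced, and 1 deposited table on the mouse build mm9 lists the splice junctions of both libraries together. Its name field gives each junction a pair of counts called R1 and R2, whose sum is the deposited count. The sources used here tie neither R1 nor R2 to a replicate, so the counts are compared as they are named.

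The junctions described here are those of chromosomes 1 to 19 that carry the value 1 in a field called flag A and span 100 nt or less. The span is the stretch of genome that a spliced read skips. There were 9481 such short-span junctions among 162426 flag A 1 junctions (5.84%), which left 152945 longer ones for comparison. The whole table held 492582 junctions with 25232776 counts in R1 and 29635475 in R2. What flag A records is not given in the sources used here. No annotation or genome of mm9 was used here, so junctions are named by their position, with no gene, exon or sequence, and the tissue label was not checked against marker genes.

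An intron is removed from a transcript by the spliceosome, which joins a donor site at the upstream end of the intron to an acceptor site at its downstream end. Mammalian introns range from stretches barely long enough to hold both sites and a branch point to stretches of many kilobases. The shortest class is known to be recognised mainly across the intron itself, while long introns are recognised across the exons that flank them. Acceptors that lie a few bases apart are a common source of small changes in the spliced product.

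Spans of the short-span junctions gathered in a narrow band. Their median was 86 nt, with quartiles of 80 and 92 nt, and 5% of them lay below 73 nt. The most frequent span was 88 nt, shared by 441 junctions. Of all 9481, 9341 (98.5%) were 70 nt or longer, 140 were under 70 nt and 24 were under 65 nt. The distribution therefore rose steeply just below 80 nt and was already falling where the limit of 100 nt lies. The limit passed through a continuous slope, with 264 junctions at 100 nt and 254 at 101 nt. The other flag A 1 junctions had a median span of 1483 nt and a longest of 491062 nt.

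**Figure D1:**
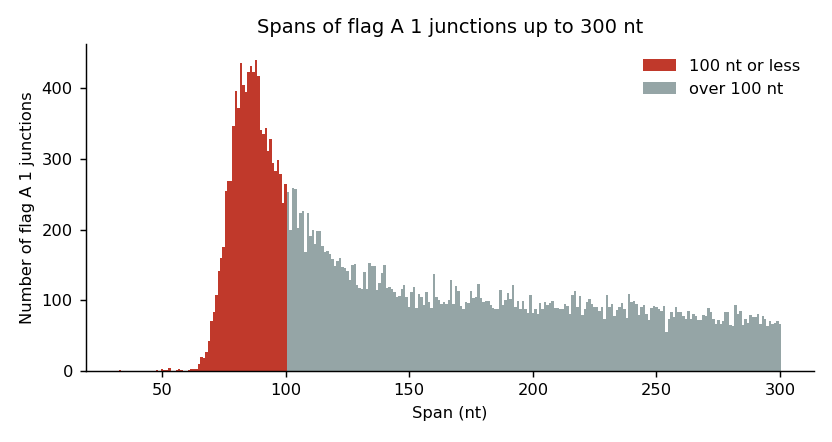
Number of flag A 1 junctions (vertical axis) at each span in nt (horizontal axis), up to 300 nt, on chromosomes 1 to 19. Red bars are the short-span junctions, whose most frequent span is 88 nt, and grey bars are longer junctions, with 254 at 101 nt.

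A span that is a multiple of 3 would leave the reading frame unchanged if the intron were kept, apart from any stop codon inside it. Among short-span junctions, 2985 (31.5%, exact 95% binomial interval 30.5 to 32.4) had such a span, against 33.4% of the other flag A 1 junctions (33.1 to 33.6). Within 66 to 99 nt, 2977 junctions lay at multiples of 3, where the neighbouring lengths held 3240 on average, a ratio of 0.919. Spans that are multiples of 3 were thus slightly less frequent than their neighbours in this band. This was not particular to the class. Past the limit, 102, 105 and 108 nt held 200, 202 and 169 junctions, each fewer than both adjacent lengths. At 111 nt there were 199, more than at 110 nt (191) and 112 nt (179). With the limit at 90 nt the share was 33.1%, close to that of the longer junctions. That limit is itself a multiple of 3 and held 341 junctions, so the share depends on where the limit falls. The comparison with neighbouring lengths was not repeated at 90 nt. Intervals here and below cover counting error only, since reads without molecular identifiers are not independent molecules.

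Short-span junctions carried more reads than longer ones. Their median count was 116 (quartiles 22 and 378, highest 94620), and that of the other flag A 1 junctions was 46 (quartiles 10 and 178, highest 314551), a ratio of medians of 2.52. In R1 the medians were 51 and 19, and in R2 they were 62 and 26. The order was therefore the same in both counts. The ranges overlapped widely, and 6198 short-span junctions (65.4%) lay above the median of the others. A count of 1000 or more was reached by 932 short-span junctions (9.83%), against 5.17% of the others. At the low end, 332 (3.50%) had a single read, against 5.75%. These junctions made up 5.84% of the flag A 1 set by number and held 9.63% of its counts, 4993721 in all. With a minimum count of 10 in both sets the ratio of medians was 1.87. No test was made between the sets, since junctions of 1 transcript share their reads' source.

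Within the short-span class the count did not rise steadily with span or fall steadily. The median was 10 for the 24 junctions under 65 nt, 137 for the 187 between 65 and 70 nt, and 135 for the 2204 between 71 and 80 nt. It was then 121 for the 4088 junctions of 81 to 90 nt and 93 for the 2978 of 91 to 100 nt. Beyond the limit the medians were 103 at 101 to 110 nt, 81 at 151 to 200 nt, 47 at 1001 to 2000 nt and 19 above 50000 nt. Counts were therefore highest in the band of 65 to 90 nt and fell slowly over the longer spans, with no step at 100 nt. At the single lengths around the limit, medians were 90 at 99 nt, 66 at 100 nt, 108 at 101 nt and 113.5 at 102 nt.

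**Figure D2:**
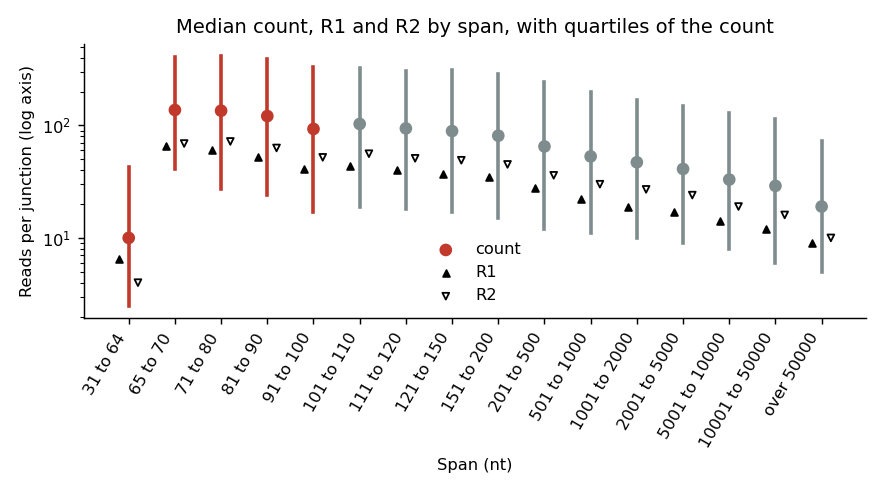
Median count per flag A 1 junction (circles, log axis) by span in nt, with the quartiles of the count as bars and the medians of R1 and R2 as triangles. Red marks spans of 100 nt or less, where medians run from 10 under 65 nt to 137 at 65 to 70 nt, and grey marks longer spans, which end at 19.

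The difference in count from longer junctions was found on every chromosome. The median of the short-span junctions was above that of the others on 19 of 19 chromosomes. Chromosome 12 (45 against 40) and chromosome 18 (51 against 44) showed the smallest gaps, and chromosome 15 had medians of 200 and 66. Short spans were unevenly spread over the genome, from 2.79% of the flag A 1 junctions on chromosome 1 to 9.77% on chromosome 17. Chromosome 7 held the most, 1084 junctions. By strand, 4566 lay on the plus strand and 4915 on the minus strand.

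The 12 short-span junctions of highest count held 14.2% of all reads of the class, while the 12 highest of the other flag A 1 junctions held 3.84% of theirs. The highest was chr13:55513511-55513608, of 98 nt, with 47376 counts in R1 and 47244 in R2, which ranked 13 among all flag A 1 junctions. On the same chromosome and strand, chr13:55502415-55502487 (73 nt) had 26061 in R1 and 32486 in R2, and chr13:55502199-55502285 (87 nt) had 12759 and 13563. Thus 3 of the 12 lay within a short stretch of chromosome 13. A second cluster was on chromosome 15, plus strand. There, chr15:89166727-89166824 (98 nt) had 34264 counts in R1 and 45269 in R2. Its neighbour chr15:89166875-89166960 (86 nt) had 35916 and 38382, and chr15:89167074-89167170 (97 nt) had 24628 and 37985. These 3 follow each other on 1 strand with short gaps, and R2 was the higher count at each. After scaling for the lower total of R1, the middle one leaned toward R1 (log2 ratio of R1 to R2 0.13). The first and the last leaned toward R2 (-0.17 and -0.40).

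The other 6 of the 12 were spread over 5 chromosomes. At chr7:51840492-51840588 (97 nt), R1 was 41944 and R2 30201, and at chr7:51484185-51484280 (96 nt) they were 22357 and 22610. At chr18:78018718-78018817, which at 100 nt lies just inside the limit, R1 was 34874 and R2 35405. R1 was thus above R2 at 1 of these 3, and close to it at the others. At chr9:78326666-78326764 (99 nt), the only minus-strand junction of the 12, R1 was 21068 and R2 37940. For chr15:99236197-99236291 (95 nt) the counts were 19348 and 17000, and for chr19:10059176-10059270 (95 nt) they were 10913 and 21972. After scaling for the lower total of R1, the log2 ratio of R1 to R2 over the 12 ran from -0.78 at the last of these to 0.70 at the first on chromosome 7. None of the 12 reached a 2-fold difference after this scaling.

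Next to the limit, the highest counts on both sides were of the same order. Inside, at 100 nt, the junction on chromosome 18 above had 70279 counts, chr1:90303792-90303891 had 20720 (R1 9765, R2 10955) and chr19:3988506-3988605 had 7826 (R1 3627, R2 4199). Outside, at 101 nt, chr10:127523253-127523353 had 91124 (R1 44522, R2 46602), chr10:75048031-75048131 had 12666 (6312, 6354) and chr7:29616307-29616407 had 10355 (4906, 5449). Nothing in these values marks the limit as a boundary.

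The 24 junctions under 65 nt differed from the rest of the class in their reads. Only 12 of them reached 10 counts and 3 reached 100, 6 had a single read, and 15 had reads in both R1 and R2. Among them, 16 shared an end with another junction, and 5 carried the value 0 in a second field, flag C, whose meaning is also not given in the sources used here. All 5 were among the 11 junctions shorter than 57 nt, while in the whole class 30 (0.316%) had that value, against 0.288% of the other flag A 1 junctions.

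The shortest of all was chr11:120624305-120624337, of 33 nt, with 7 reads in R1 and 2 in R2. The spans chr19:47807245-47807292 (48 nt) and chr17:34941093-34941142 (50 nt), had 1 read each, both in R1, and had flag C at 0. By contrast, chr17:36029935-36029984 (50 nt) had 14 reads in R1 and 18 in R2, and chr1:90162854-90162904 (51 nt), with flag C at 0, had 27 and 33. These last spans were thus read about equally in both counts. One junction under 65 nt stood far above the others: chr8:87417584-87417640, of 57 nt, had 2659 counts in R1 and 3309 in R2. It was followed by chr11:50196374-50196429 (56 nt, 46 and 125) and chr15:76425041-76425103 (63 nt, 79 and 66). These 3 were singled out after their values were seen, as those with 100 counts or more.

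The 30 short-span junctions with flag C at 0 lay mostly on 1 strand. Of these, 26 were on the minus strand and 4 on the plus strand, and of the 440 longer ones 335 were on the minus strand and 105 on the plus strand. Their median count was 29.5, and that of the longer ones 34.5. The highest 2, chosen after their values were seen, were chr17:25976837-25976929 (93 nt, R1 1290, R2 1318) and chr7:51809079-51809178 (100 nt, R1 539, R2 698), both on the minus strand. The strand imbalance was seen in short and long spans alike, and its source was not tested.

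R1 and R2 gave nearly the same ranking of the short-span junctions. Across the 9481 junctions, which share the pair of libraries and are not independent, Pearson's r of log2(count + 1) was 0.939 and Spearman's rho 0.957, beside 0.933 and 0.940 over the other flag A 1 junctions. Both R1 and R2 were above 0 for 8576 (90.5%), against 86.3% of the others. R1 held 46.7% of the summed reads of the class (exact 95% binomial interval 46.66 to 46.75), and 45.9% of those of the other flag A 1 junctions. The shift toward R1 was small but wider than counting error.

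Each junction with 10 counts or more was tested for a share of R1 different from that over all flag A 1 junctions (46.0%). The test was a two-sided exact binomial test with Benjamini-Hochberg adjustment over 143515 junctions of the table. A junction was called at an adjusted p below 0.05 and an absolute log2 ratio of 1 or more. It compares the reads of a pair of counts and no conditions. Over the whole table, 2.78% of the tested junctions were called higher in R1 and 5.91% higher in R2. Of the 7919 short-span junctions tested, 185 (2.34%) were called higher in R1 and 449 (5.67%) higher in R2. Both shares lie near those of the whole table. The 634 calls were mostly junctions of few reads, with 443 of 2941 (15.1%) at 10 to 99 counts, 183 of 4046 (4.52%) at 100 to 999 and 8 of 932 (0.858%) at 1000 or more. In the same ranges 12.1%, 4.41% and 1.99% of the other flag A 1 junctions were called, so the class had the larger share at the lowest counts and the smaller at the highest. Calls are not independent, since 147 of the 634 lay in 19 loci of 4 or more called junctions, as described below. The share at the highest counts rests on 8 calls, 3 of them in 1 stretch of chromosome 8. The part of such clusters in these differences was not tested.

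Without the limit on the ratio, the calls were no longer mostly toward R2. By the adjusted p alone (same exact binomial test), 2412 short-span junctions passed (30.5%), 1216 higher in R1 (15.4%) and 1196 higher in R2 (15.1%). Of all junctions tested, 9.89% passed higher in R1 and 13.4% higher in R2. Short-span junctions also had higher counts, at which smaller ratios pass, and the part of the counts in this difference was not tested.

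**Figure D3:**
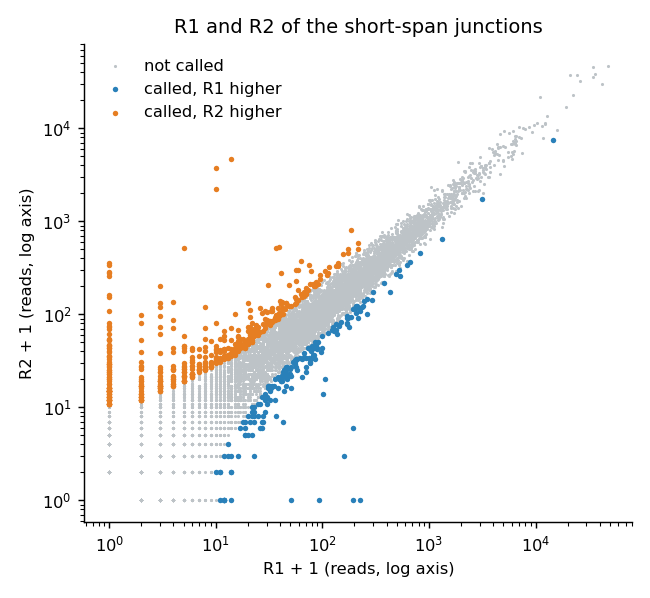
R2 + 1 against R1 + 1 in reads for the 9481 short-span junctions, both on log axes. Grey points were not called, and the 185 blue and 449 orange points were called higher in R1 and in R2. Most points lie along the diagonal, and a few with many reads in R2 (up to 4723) have 13 or fewer in R1.

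The largest differences were between many reads and none. The 4 junctions with the highest log2 ratio were all on chromosome 17, minus strand. At chr17:34938994-34939077, R1 was 224 and R2 was 0 (log2 ratio 9.04, adjusted p = 1.29e-73, exact binomial test with Benjamini-Hochberg adjustment). R2 was also 0 at chr17:34939182-34939249, chr17:34941079-34941142 and chr17:34857036-34857119, where R1 was 192, 93 and 50. At the other end, chr7:133591578-133591675 had 0 in R1 and 355 in R2 (log2 ratio -9.24, adjusted p = 6.77e-93, exact binomial test with the same adjustment). R1 was 0 as well at chr2:164603346-164603443, chr7:134357037-134357123 and chr2:164603588-164603675, with R2 at 340, 287 and 280. Log2 ratios against a 0 use a prior count of 0.5 and set no bound on the true ratio.

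The 8 called junctions of 1000 counts or more, named after their values were seen, fell into a group with modest ratios and a group with very large ones. R1 was higher at 5 of them, with log2 ratios, centred as above, between 1.08 and 1.25. The highest of these was chr10:79354358-79354447 (90 nt), with 14729 reads in R1 and 7468 in R2. R2 was higher at the other 3, all within a short stretch of the minus strand of chromosome 8. There, chr8:126416636-126416732 (97 nt) had 13 reads in R1 and 4723 in R2, chr8:126416053-126416128 (76 nt) had 9 and 3767, and chr8:126417371-126417468 (98 nt) had 9 and 2244. R1 and R2 thus disagreed on these 3 by more than on any of the 12 highest junctions.

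Called junctions also lay together along the genome. Grouped by direction, with neighbours less than 100 kb apart joined, the 634 calls fell into 431 loci, 352 of them with a single junction. The grouping was chosen after the values were seen. Tested junctions of a locus were counted in a window reaching 20 kb beyond it on each side, on the strands of its called junctions. In 19 loci there were 4 or more called junctions, 147 in all: 4 loci with 22 higher in R1 and 15 loci with 125 higher in R2. The locus with most calls was chr11:66989674-67072584, where 33 of 33 tested short-span junctions were called higher in R2, with 4 reads in R1 and 1585 in R2 in sum. All 76 other flag A 1 junctions tested in that window were called the same way, with 12 reads in R1 and 4508 in R2. The difference at that locus was thus seen in short and longer spans alike.

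Other loci were less uniform, with tested junctions again counted in windows reaching 20 kb beyond the positions printed. In chr7:29772050-29901131, 16 of 19 short-span junctions and 68 of 84 others were called higher in R2. In chr7:133507815-133600627, 11 of 16 and 34 of 55 were, and 1 of the others was called the opposite way. On chr7:149629118-149762733, 6 of 7 were, with 9 reads in R1 and 774 in R2 at those called. The locus with most calls toward R1, chr17:34855230-34941142, had 10 of 31 short-span junctions of its window called, with 1032 reads in R1 and 45 in R2 at those called. Of the 58 other flag A 1 junctions tested there, 6 were called toward R1 and 1 toward R2. That window was therefore mixed, with most of its tested junctions not called. What sets these loci apart between R1 and R2 was not tested.

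A junction that shares its donor or acceptor with another junction on the same strand marks an end joined in more than 1 way. Of the short-span junctions, 3746 (39.5%) shared an end with a junction of any flag, against 45.1% of the other flag A 1 junctions. Sharing with a flag A 1 partner was rarer, 731 (7.71%) against 18.2%. Where a shared end had 10 or more counts in all, the short-span junction took a median of 98.8% of them (4235 ends, 99.1% in R1 and in R2), and the others took a median of 95.1%. It took over 90% at 80.1% of these ends, against 59.8%. Under 10% was taken at 5.12%, against 12.4%. At most shared ends, the short-span junction thus held nearly all of the reads. With flag A 1 partners alone the median was 61.2% over 702 ends, beside 38.9% for the others.

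Ends split evenly included some whose counts were equal to the last read. The 4 junctions closest to 50% at ends of 100 counts or more had partners of many kilobases with flag A at 0 and the same R1 and the same R2. At chr17:34854755-34854843 (89 nt), both the junction and a partner of 82090 nt had 139 in R1 and 83 in R2. The junctions chr2:121288041-121288122 and chr2:121320584-121320665 were both 82 nt long, and a partner of 32625 nt ran from the first to the second. All 3 had 69 in R1 and 166 in R2. At chr7:31731689-31731769 (81 nt), the junction and a partner of 19996 nt both had 492 and 760. How reads with more than 1 placement were counted is not given in the sources used here, and their part in these equal counts was not tested.

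Such identity was rare among well-read junctions. Of 6094 short-span junctions with 50 counts or more, 7 (0.115%) had a partner of identical R1 and R2 at a shared end, and 164 of 74614 others (0.220%) did. Near-equal counts with a distant partner also occurred, in junctions chosen after their values were seen. At chr9:119132386-119132470 (85 nt) R1 was 284 and R2 247, and a flag A 0 partner of 28113 nt had 285 and 247. At chr3:94506321-94506402 (82 nt) the counts were 765 and 1086, and a flag A 0 partner of 240226 nt had 758 and 1085. An even split at such an end is therefore not shown to be a choice of splice site.

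Alternative acceptors close to each other were found through pairs of flag A 1 junctions that shared a donor and ended at most 30 nt apart. There were 114 such pairs with at least 1 short-span junction, and in 91 of them both were. The most common distance was 3 nt, in 34 pairs (29.8%), followed by 4 nt in 13 (11.4%). In the 1167 pairs without a short-span junction, 512 (43.9%) were 3 nt apart and 89 (7.63%) were 4 nt apart. Multiples of 3 made up 56.1% and 66.2%. A distance of 3 nt was thus the leading one in both sets and made up a smaller share of the short-span pairs. Pairs that shared an acceptor were fewer, 38 with a short-span junction, of which 5 (13.2%) were 4 nt apart and 0 were 3 nt apart. Without one there were 623, with 66 (10.6%) at 4 nt. With 10 or more counts in both junctions, an alternative chosen after seeing the data, 1 of 22 acceptor-sharing pairs (4.55%) was 4 nt apart, and 4 nt was no longer the leading distance. Of the donor-sharing pairs, 23 of 61 (37.7%) were then 3 nt apart.

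**Figure D4:**
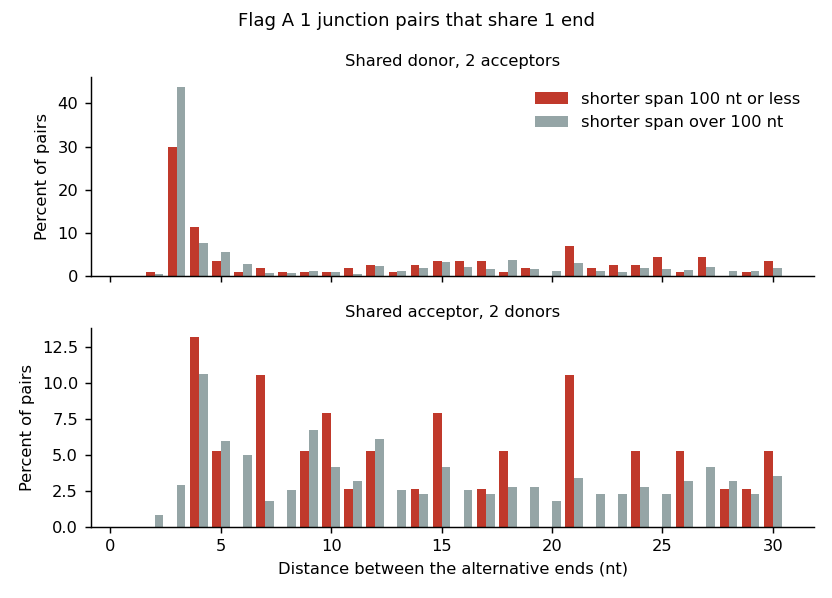
Percent of flag A 1 junction pairs by the distance in nt between their alternative ends, for pairs sharing a donor (top) and an acceptor (bottom). Red bars are pairs whose shorter span is 100 nt or less (114 and 38 pairs), and grey bars are pairs with longer spans (1167 and 623). The bar at 3 nt is the highest for shared donors, and the bar at 4 nt for shared acceptors, the latter only with no minimum count.

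At 3 nt, both acceptors were commonly used. Of the 30 short-span pairs with 20 counts or more, the shorter span had the higher count in 19 and the longer span in 11. The minor form made up 10% or more in 25 of the 30 (83.3%). R1 and R2 gave the same form the lead in 26 of 30, and the share of the shorter span differed between them by a median of 3.99 percentage points. Among the 413 pairs with longer spans, the shorter form led in 63.2%, beside 63.3% here. At 4 nt the picture differed: the shorter span led in 10 of 10 short-span pairs, at a median share of 98.8%, and in 68 of 82 others.

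The 6 short-span pairs of highest count at 3 nt, singled out after their values were seen, ranged from 19.6% to 94.3% in the share of the shorter form. At chr8:96913334-96913420 (87 nt), the shorter form had 471 reads in R1 and 550 in R2, and the longer had 33 and 29. The shorter form thus held 94.3% (exact 95% binomial interval 92.7 to 95.6). At chr17:35279785-35279867 (83 nt), the shorter form had 242 and 201 reads and the longer 298 and 218, a share of 46.2% (43.0 to 49.4), with 44.8% in R1 and 48.0% in R2. At chr8:3641821-3641894 (74 nt), the shorter form had 111 and 65 and the longer 357 and 363. Its share of 19.6% (17.1 to 22.4) was the lowest of the 6.

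On the minus strand, chr10:80951104-80951172 (69 nt) had 284 and 414 reads, and its partner of 72 nt had 121 and 126, a share of 73.9% (70.9 to 76.6). At chr5:110694665-110694758 (94 nt), 81 and 128 reads stood beside 66 and 102, a share of 55.4% (50.3 to 60.5) that R1 (55.1%) and R2 (55.7%) gave alike. At chr2:24781969-24782064 (96 nt), 355 and 299 reads stood beside 29 and 12, a share of 94.1% (92.1 to 95.7). The shorter form led in 4 of these 6 pairs and the longer form in 2, and no interval of the 6 held 50%.

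Short spans followed each other. A junction was linked to the flag A 1 junction of highest count that began 1 to 300 nt beyond its right end on the same strand, the distance an internal exon would fill. Of the 8303 short-span junctions with such a neighbour (87.6%), 1531 (18.4%) had a neighbour that was itself 100 nt or less. For the other flag A 1 junctions it was 4.87%. The median span of the neighbour was 340 nt, against 1335 nt, while the median distance to it was alike, 120 and 123 nt. Counts of linked neighbours with 10 or more each lay within 2-fold for 69.5% of 6900 pairs, beside 64.2% of 91242 pairs.

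Linking short spans alone gave 7623 runs, of which 6410 were single. The 1213 runs of more than 1 position held 3003 short-span junctions (31.7%), and 45 runs had 5 positions or more. The runs of at least 8 positions are named here, as chosen after their values were seen. The longest was chr15:76283809-76286301 on the minus strand, where 12 short spans of 71 to 93 nt followed each other within 2493 nt. Their counts ran from 322 at chr15:76285015-76285103 to 1308 at chr15:76284001-76284073, and summed to 3718 in R1 and 3672 in R2. Log2 ratios of R1 to R2 along the run lay between -0.24 and 0.51, so no junction in it was called.

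Chromosome 15 held 3 more of the 8 runs with at least 8 positions: chr15:76426363-76428405 (11 short spans, counts 252 to 681), chr15:76332985-76334294 (9, 294 to 922) and chr15:76429386-76431111 (8, 33 to 729). The other 4 were chr14:31952390-31954718 (11, 137 to 637), chr2:25298273-25300041 (9, 7 to 1259), chr11:69823939-69825185 (8, 551 to 3818) and chr19:6345363-6346691 (8, 151 to 1538). All 4 runs on chromosome 15 lay on the minus strand within a short stretch of the chromosome. In the run on chromosome 14, R1 and R2 were both 1624, while on chromosome 11 R1 was 6284 and R2 9611.

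A second deposited table lists contigs, stretches of read signal on 1 strand, with a level for each that the authors give without a stated unit. There were 809659 contigs with a median length of 232 nt, and none overlapped on a strand. A span that lies whole inside 1 contig of its strand has signal across the stretch that spliced reads skip, though the level is that of the whole contig and includes the flanking exons. The shortest gap between contigs was 11 nt. Whether shorter breaks in the signal were joined is not given in the sources used here, so a span inside a contig could hold such breaks. Whether the skipped stretch of a spliced read adds to the signal is not given in the sources used here.

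Of the short-span junctions, 5754 (60.7%) lay whole inside 1 contig, and 673 were touched by none. The share was 48.8% for spans of 101 to 200 nt, 35.2% for 201 to 500 nt and 3.69% above 1000 nt. Within the class it fell from 190 of 211 junctions at 31 to 70 nt to 73.7% at 71 to 80 nt, 58.5% at 81 to 90 nt and 51.9% at 91 to 100 nt. It rose with the count, from 23.6% at 1 to 9 counts to 47.1% at 10 to 99, 77.4% at 100 to 999 and 93.3% at 1000 or more. For spans of 101 to 200 nt the last 2 values were 62.9% and 86.5%. Both the span and the count therefore went with lying whole inside 1 contig, and spans of 101 to 200 nt in those ranges of counts did so less often. A fall with span is partly built in, since contigs had a median length of 232 nt and must hold the whole span. Contigs covered at least 50% of the span for 72.9% of short-span junctions, 66.7% at 101 to 200 nt and 35.6% above 1000 nt.

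**Figure D5:**
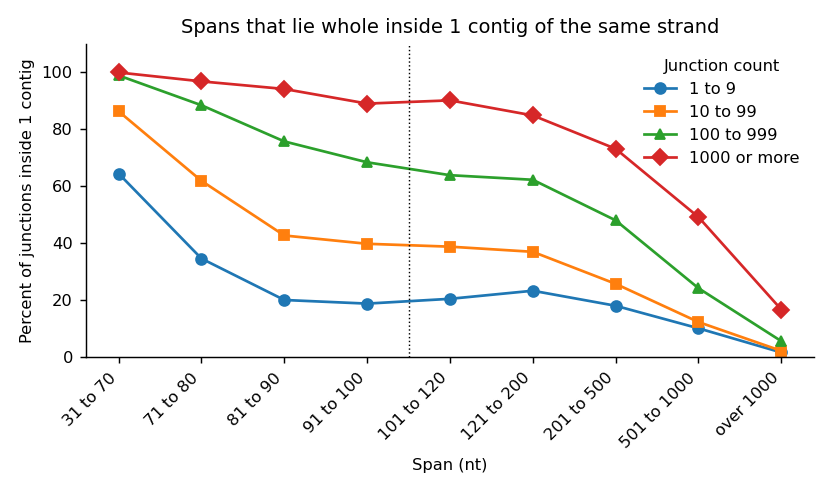
Percent of flag A 1 junctions whose span lies whole inside 1 contig of the same strand, by span in nt, with a line for each range of counts. The dotted line marks 100 nt. Within every range of counts the share is highest at 31 to 70 nt, and at most spans it is higher for higher counts.

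All 12 of the highest short-span junctions lay inside a contig. The 3 on chromosome 13 had a contig level of 642 and the neighbouring 3 on chromosome 15 a level of 883. Over the 5754 junctions inside a contig, the level rose with the count (Spearman's rho 0.777, n = 5754 junctions of the same libraries). The median level per 1000 counts was 29.9, with quartiles of 18.3 and 51.2. It fell with the count, from 398 at 1 to 9 counts to 48.7 at 10 to 99, 26.7 at 100 to 999 and 14.9 at 1000 or more. A fall is partly built in, since the count is the divisor of this ratio and the level is that of the whole contig. For the other flag A 1 junctions inside a contig the values were 851, 57.1, 21.6 and 11.8. Some junctions of high count were not inside a contig, and these were named after their values were seen. At chr5:104865462-104865559 (98 nt, R1 4595, R2 8773) contigs covered 88.8% of the span, and at chr7:133939029-133939126 (98 nt, R1 4441, R2 6361) 69.4%. At chr4:115198294-115198389 (96 nt, R1 2893, R2 2941) they covered 7.29%, so nearly all of that span lacked contig signal beside 5834 spliced reads.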

How the data were processed

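Per the labels, poly-A RNA over 200 nt, cleared of ribosomal RNA and carrying spike-ins, was read as stranded 76 nt pairs (Illumina GAIIx). The deposited count of a junction is the whole number of reads named R1 plus R2. In the contig table the authors give a signal level. No aligner, junction caller or treatment of reads with several placements is named (not given in the sources used here). Both tables are on mm9. The edges of 96791 flag A 1 junctions over 1000 nt coincided with contig edges at 14396 left and 14001 right ends, against 4 displaced by 1 nt away from the span on each side and 7619 and 7283 displaced by 1 nt into it. Positions were read as BED intervals and are printed counted from 1. Gene tables, which are on another build, were not used.

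R1 was tested against R2 with SciPy 1.17.1 under Python 3.11.15 (exact binomial, Benjamini-Hochberg). Log2 ratios used a prior count of 0.5 and were centred on the R1 share over all flag A 1 junctions. The test was run over the whole table. It was also tried on simulated counts drawn from the binomial model that it assumes, with seeded changes and no spread beyond counting error. That trial checks the code only and cannot show how well the calls hold in these data. A donor is the upstream end of a span on its strand. The table pools both libraries, so no SD over replicates can be given, and p-values measure reads only. The members and lists were chosen with earlier results of these data known. Junctions named by rule were the 12 of highest count, the 5 shortest, the 3 highest on either side of the limit, the 4 highest and 4 lowest log2 ratios at 10 or more counts, and the 4 ends of 100 or more counts nearest 50% usage. Others are marked as chosen after their values were seen.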

Additional observations from a re-analysis of the deposited data

How the results depend on the processing

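Of 39 alternatives, 23 left a result within the limit set for it and 16 moved it. The limits differed widely between results, so the tally is no measure of stability. A fall from 9481 to 6503 junctions (limit at 90 nt) counted as within its limit. So did a fall from 634 to 431 calls (without loci of 4 or more called junctions). A change in the R1 share from 46.71% to 46.64% counted as moved. The median count was 166 with a minimum count of 10, 51 in R1 alone and 62 in R2 alone, and the ratio of medians was 1.87 with that minimum. The R1 share was 46.64% without the junction of highest count, 47.06% with the limit at 90 nt and 46.65% at 110 nt. By adjusted p alone (exact binomial test, Benjamini-Hochberg) 2412 junctions were called, 1216 higher in R1 and 1196 higher in R2, so the excess toward R2 (185 against 449) was lost. With the limit at 90 nt, 33.1% of spans were multiples of 3. Sharing an end fell to 731 with flag A 1 partners and 1034 with partners of 10 or more counts. Median usage was 98.9% and 99.1% with a minimum of 20 and 50 counts at the end, and 98.8% without junctions of identical R1 and R2, an alternative chosen after seeing the data. Also chosen so, the share of short neighbours was 20.1% with a gap of 200 nt and 19.4% with a minimum count of 10. With that minimum acceptor-sharing pairs 4 nt apart fell from 13.2% to 4.55%, a fall that counted as within its limit. No paired analysis was possible because the junction table pools both libraries and R1 and R2 are tied to no replicate, and leaving out a replicate was not run for the same reason. Depth limits the test to the 7919 of 9481 junctions with 10 counts or more.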

Other observations

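Short spans with flag A at 0 differed from those with flag A at 1 in length and in reads. On chromosomes 1 to 19 there were 33287 junctions with flag A at 0 and spans of 100 nt or less, and their median span was 65 nt. Of these, 49.1% were under 65 nt, a length range that held 24 of the 9481 junctions with flag A at 1. Their median count was 1, 59.7% rested on a single read, 1046 (3.14%) reached 10 counts, and 11.5% had reads in both R1 and R2. Flag A 0 junctions over 100 nt had similar reads, so these values were not particular to short spans. The longer ones had a median count of 1, 62.0% with a single read, 5.48% with 10 counts and 15.4% with both. Flag C was 0 in 84.0% of the short ones and 61.1% of the longer ones. An end was shared with a flag A 1 short span by 1878 of the short ones.

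On the X chromosome, which the choice of junctions leaves out, 273 of 5008 flag A 1 junctions (5.45%) spanned 100 nt or less. Their median count was 77, beside 23 for longer X junctions, and the shortest span was 67 nt.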
